A study of Mus musculus with 5 samples.

Results

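The genes described are the core of the inflammasome pathway in mouse macrophages: the sensors Nlrp3, Nlrc4 and Aim2, the adaptor Pycard (ASC), the inflammatory caspases Casp1 and Casp4 (caspase-11 in the mouse), and the pore-forming protein gasdermin D (Gsdmd). They were taken from the table by gene symbol, and all 7 were found among its 21878 gene symbols, with 41 transcripts in all. RNA was sequenced from RAW264.7 cells, a macrophage-like mouse line that came from a virus-induced tumour. The cells of all 3 groups were the same line with no labelled genetic change. There was 1 library with vector, 2 with lipopolysaccharide (LPS, the endotoxin of Gram-negative bacteria) at 0.5 mg/mL, and 2 with LPS and arctigenin, a plant lignan, at 1 μM, with doses as labelled. The labels do not give the content of the vector treatment, the duration of LPS, or whether the replicates were separate cultures. The p-values therefore rest on the spread between these libraries, which may be technical. None of the 5 libraries was labelled with arctigenin and no LPS. An effect of arctigenin alone therefore cannot be told apart from one on the response to LPS.

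An inflammasome forms when a sensor meets its signal: NLRP3 responds to potassium efflux and membrane damage, NLRC4 to bacterial flagellin and secretion-system proteins delivered by NAIP receptors, and AIM2 to DNA in the cytosol. The sensor recruits caspase-1, directly or through the adaptor ASC, and caspase-1 cuts the precursors of interleukin-1β and interleukin-18 as well as gasdermin D, whose cut end forms pores in the plasma membrane. Caspase-11 binds LPS in the cytosol itself and also cuts gasdermin D. Macrophages are commonly primed first through Toll-like receptors, NF-κB and interferon signalling, which set the amount of these proteins that is available. RNA levels do not show whether an inflammasome assembled, and no cleavage or cell death was measured in these files.

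Estimated counts summed to between 19836203 and 21578355 per library, and log2 CPM values of the replicates correlated across genes at 0.989 for LPS and 0.986 for LPS with arctigenin. Levels are given as CPM (counts scaled by library size with TMM normalisation) and changes as log2 fold changes with standard errors from edgeR's quasi-likelihood test across 11575 genes. A gene was called at a Benjamini-Hochberg adjusted p under 0.05, and the spread of the replicated groups stood in for that of vector. All 10 macrophage markers were above 0 in every library. Their summed level was 8359 CPM in vector, 6411 and 6254 CPM with LPS, and 7724 and 7048 CPM with LPS and arctigenin. The 25 markers of other cell types summed to 22.6 CPM in vector, to 212 and 210 CPM with LPS, and to 111 and 129 CPM with LPS and arctigenin. Most of that sum was S100a8 and Itgax. Of the 25 markers, 5 (Ly6g, Elane, Cd3e, Flt3 and Epcam) were at 0 in all 5 libraries and 12 were above 0 in all. Some low markers differed between groups. The fibroblast marker Dcn had 0.319 CPM in vector, 3.87 and 3.36 CPM with LPS, and 0.426 and 0.475 CPM with LPS and arctigenin. The endothelial marker Pecam1 had 0.199 CPM in vector, 0.981 and 0.803 CPM with LPS, and 2.6 and 2.5 CPM with LPS and arctigenin. The summed levels of both marker sets moved with the groups, and their part in the results was not tested. In bulk RNA, fewer cells of a type and less RNA per cell cannot be told apart.

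Of the 7 genes, 6 were expressed well above the filter in every library and were tested. With LPS, Casp1, Casp4, Gsdmd and Aim2 rose by 1.23- to 1.73-fold and Nlrp3 fell by 2.04-fold. With arctigenin added to LPS, Nlrp3, Casp4 and Nlrc4 fell by 1.55- to 2.31-fold and none rose. With curated transcripts alone, Nlrp3 and Aim2 changed sign with LPS, but neither change was called. For Nlrp3, only the first LPS library was then above vector. Pycard, the adaptor that joins NLRP3 and AIM2 to caspase-1, had 0 counts in all 5 libraries. LPS against vector thus gave 4 genes higher and 1 lower of the 6, where 52% of all genes tested were called, 27.1% higher and 24.9% lower. LPS with arctigenin against LPS gave 0 higher and 3 lower of the 6, where 44.8% of all genes were called, 22.8% higher and 22% lower. With calls this common across the whole table, these counts are a description of the named genes and not a property of the pathway.

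**Figure D1:**
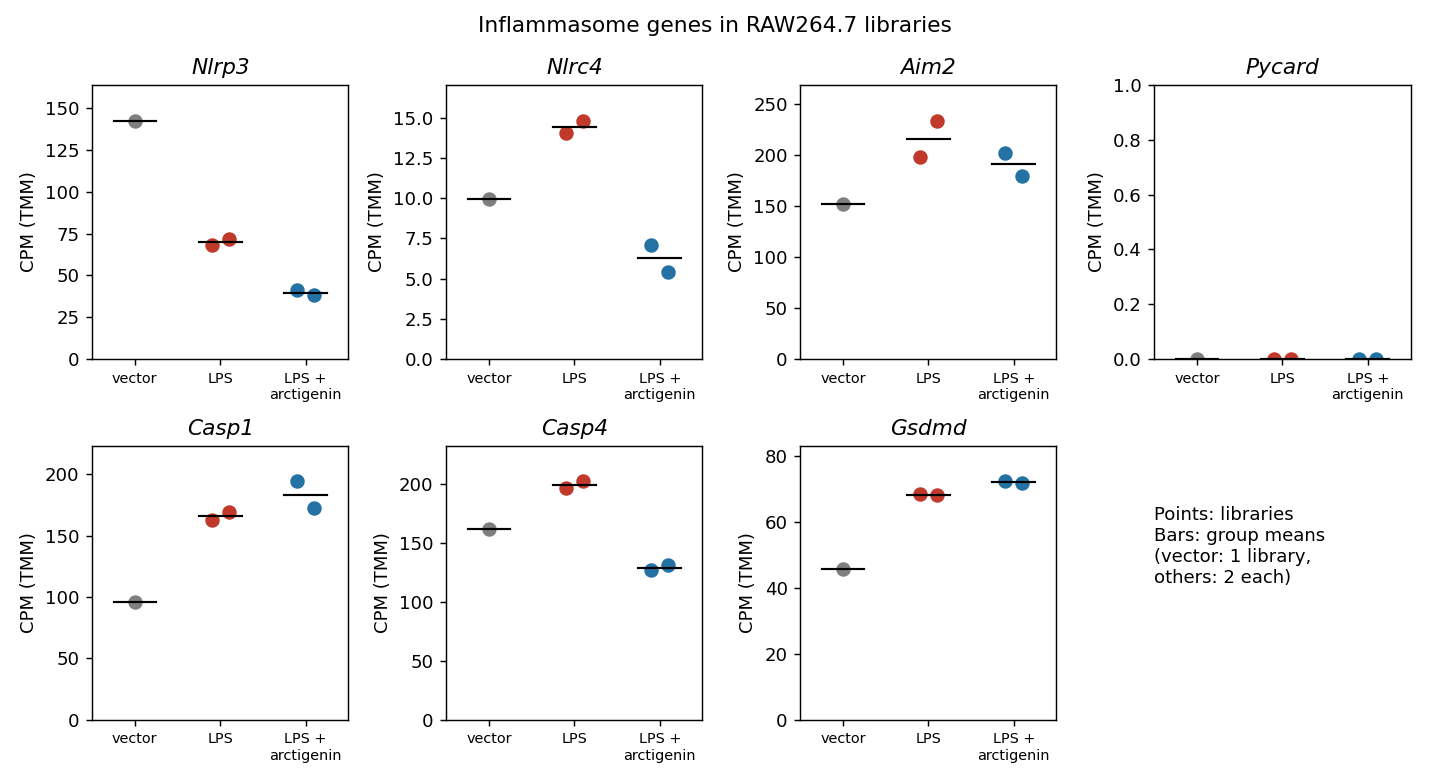
Level of each inflammasome gene in CPM (vertical axes, each starting at 0) in the 5 libraries, with 1 point per library and a bar at the mean of each group (the single value for vector). Nlrp3 stands at 143 CPM in vector, at 68.0 and 71.6 CPM with LPS and at 41.0 and 38.3 CPM with LPS and arctigenin, while Pycard is at 0 throughout.

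Per kilobase of the longest protein-coding transcript, Casp4 had the highest level in vector, 113 CPM per kb, ahead of Casp1 at 64.0, Aim2 at 53.3, Nlrp3 at 35.4, Gsdmd at 25.8 and Nlrc4 at 2.59 CPM per kb. With LPS, Casp4 at 139 ± 2.59 CPM per kb (SD, n = 2) and Casp1 at 110.9 ± 3.24 CPM per kb still led, and Gsdmd at 38.5 ± 0.0737 CPM per kb now stood above Nlrp3 at 17.4 ± 0.627 CPM per kb. With LPS and arctigenin the order of the 2 caspases changed, with Casp1 at 122 ± 10.4 CPM per kb above Casp4 at 90.0 ± 2.24 CPM per kb. Aim2 came next after the caspases in all 3 groups, at 75.9 ± 8.94 CPM per kb with LPS and 67.1 ± 5.61 CPM per kb with LPS and arctigenin, and its libraries did not overlap those of its neighbours in either order. Nlrc4 stayed last, at 3.76 ± 0.135 CPM per kb with LPS and 1.63 ± 0.304 CPM per kb with LPS and arctigenin. In vector, with a single library, the order has no spread behind it.

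Nlrp3, the sensor of potassium efflux, lies at chr11:59355070-59380458 on the plus strand of mouse build mm9 (GENCODE vM1 annotation, which also gives the positions that follow). It had 143 CPM in vector (3578 estimated counts), 68.0 and 71.6 CPM with LPS (1387 and 1426 estimated counts), and 41.0 and 38.3 CPM with LPS and arctigenin (770 and 727 estimated counts). The 3 groups did not overlap, and the level stepped down from vector to LPS and again from LPS to LPS with arctigenin. Among tested genes ordered by CPM per kb, it moved from percentile 82.7 in vector to 65.1 and 66.3 with LPS and to 51.7 and 49.7 with LPS and arctigenin. The log2 fold change was −1.03 ± 0.09 with LPS against vector (adjusted p = 6.36e-06) and −0.82 ± 0.08 for LPS with arctigenin against LPS (adjusted p = 3.04e-05). LPS with arctigenin against vector gave −1.85 ± 0.09, a 3.59-fold lower level (adjusted p = 1.32e-07). The contrasts share libraries, so they are not separate evidence of each other.

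The Nlrp3 sum came from 3 transcript models whose shares were unstable. The curated transcript NM_145827.3 held 14.4% of the Nlrp3 count in vector, 71.8% and 17.7% in the 2 LPS libraries, and 18.1% and 20.3% in the libraries with LPS and arctigenin. Its estimated counts were 514 in vector and 997 and 252 in the LPS libraries, above vector only in the first. The first LPS library therefore stood apart in how reads were divided, although its sum of 1387 was close to the 1426 of the second. Without that library the Nlrp3 sum still gave −0.99 with LPS against vector (adjusted p = 0.000715) and −0.85 for arctigenin against LPS (adjusted p = 0.00186). With curated transcripts alone the LPS change of Nlrp3 was 0.60 in place of −1.03 (adjusted p = 0.598), the arctigenin change against LPS was −2.02 (adjusted p = 0.0872), and LPS with arctigenin against vector gave −1.42 (adjusted p = 0.201).

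Nlrc4, the sensor that works with the NAIP receptors, lies at chr17:74825635-74858448 on the minus strand and was the least abundant of the tested genes. Its levels were 9.96 CPM in vector, 14.1 and 14.8 CPM with LPS, and 7.08 and 5.43 CPM with LPS and arctigenin, from 103 to 295 estimated counts per library. Both LPS libraries were above vector and both libraries with arctigenin were below it. The fall with arctigenin had the largest fold of the 7 genes in that contrast, 2.31-fold, with a log2 fold change of −1.21 ± 0.18 (adjusted p = 0.000394). The difference between LPS and vector, 0.54 ± 0.21, missed the threshold at an adjusted p of 0.05001. It passed without a count filter (adjusted p = 0.0427), in limma-voom (0.0253) and without either arctigenin library (0.0207 and 0.0185). LPS with arctigenin against vector gave −0.67 ± 0.21 (adjusted p = 0.02), and this call was lost in DESeq2 (adjusted p = 0.0905), without the first LPS library (0.0501), without the second arctigenin library (0.0663) and with curated transcripts alone (0.583). With curated transcripts alone the arctigenin change against LPS was −2.36 (adjusted p = 0.294), from a curated transcript with 0 counts in 1 arctigenin library and 32.9 in the other.

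Aim2, the sensor of cytosolic DNA, lies at chr1:175281010-175396171 on the plus strand. Its sum was 151 CPM in vector, 197 and 233 CPM with LPS, and 202 and 179 CPM with LPS and arctigenin. All 4 libraries with LPS were above vector, while the LPS groups with and without arctigenin overlapped. Aim2 rose with LPS by 0.51 ± 0.11 (1.42-fold, adjusted p = 0.0046). The arctigenin difference was −0.18 ± 0.09 with a 95% interval from −0.38 to 0.028 (adjusted p = 0.143), so a fall of up to 0.38 on the log2 scale is not excluded by these libraries. Against vector, LPS with arctigenin was higher by 0.33 ± 0.11 (adjusted p = 0.0307), a call that was lost without the first arctigenin library (adjusted p = 0.0927).

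The direction of Aim2 depended on which transcripts were counted. Its 24 transcripts include 1 curated model, NM_001013779.2, with 2310 estimated counts in vector, 1070 and 1314 with LPS, and 588 and 778 with LPS and arctigenin. The predicted model XM_006496926.1 ran the other way, from 379 in vector to 1314 and 1457 with LPS and 1591 and 1104 with LPS and arctigenin. In a fit of 35464 transcripts, where 5.09% were called in LPS against vector, the predicted model rose by 2.12 (adjusted p = 0.0316) and the curated model had −0.71 (adjusted p = 0.198). In LPS with arctigenin against vector, where 6.98% of transcripts were called, the curated model fell by 1.43 on the log2 scale (adjusted p = 0.0384). In that contrast the predicted models XM_006496926.1 and XM_017321496.1 were called higher, by 2.16 (adjusted p = 0.0264) and 3.84 (adjusted p = 0.0386). With curated transcripts alone, Aim2 had −0.63 with LPS (adjusted p = 0.0875), −0.72 for arctigenin against LPS (adjusted p = 0.0495) and −1.34 for LPS with arctigenin against vector (adjusted p = 0.00945). Aim2 stands in a cluster of similar Ifi200 genes and its annotated span overlaps Cadm3 on the other strand, which had 0 counts in every library.

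**Figure D2:**
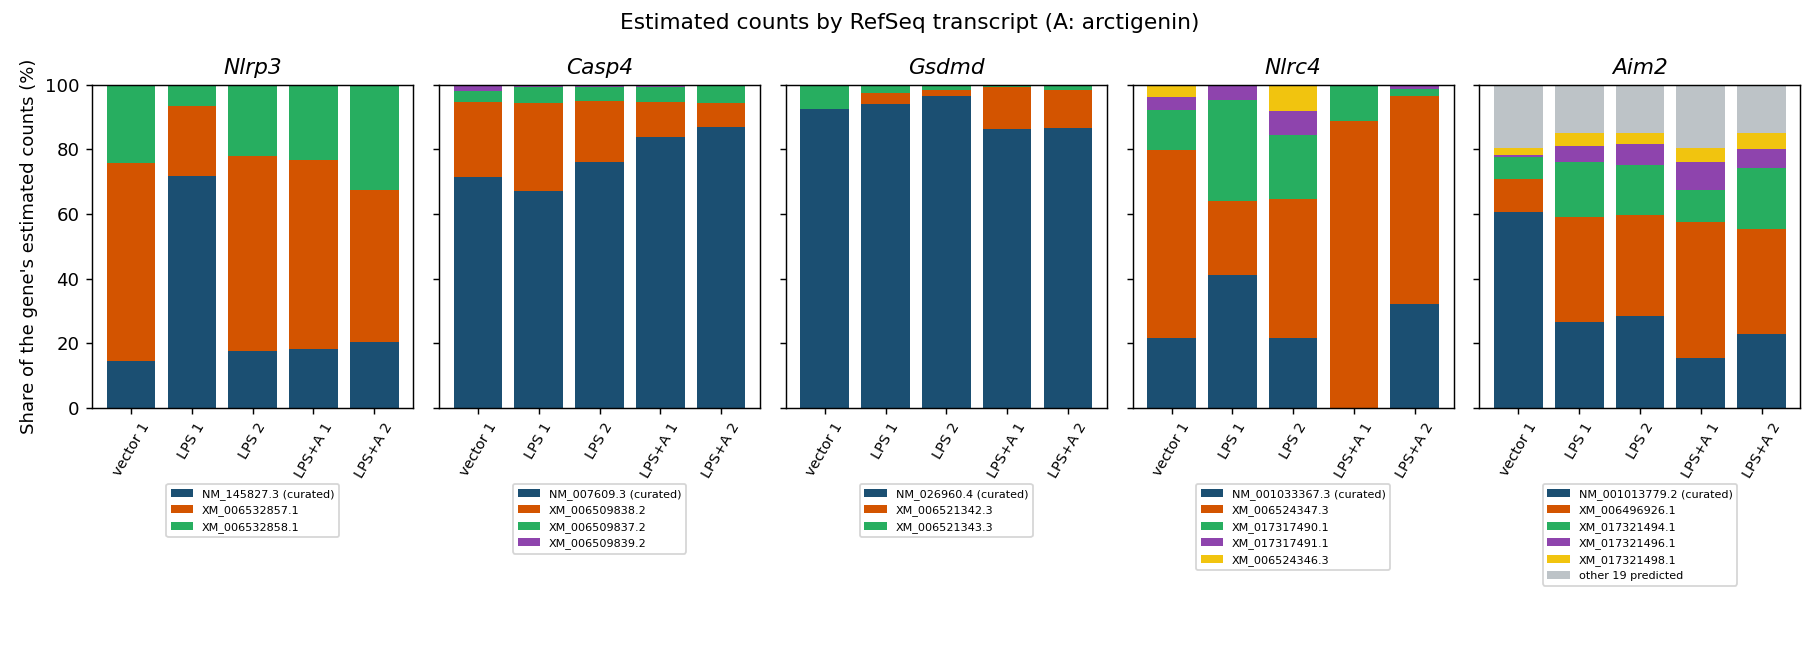
Share of each gene's estimated count, in percent (vertical axis), held by its transcript models (stacked colours, the curated model at the bottom) in the 5 libraries, for the genes with more than 1 transcript. The curated Nlrp3 transcript holds 71.8% in the first LPS library and 14.4% to 20.3% in the other 4, and the curated Aim2 transcript goes from 60.8% in vector to 15.5% and 22.9% with LPS and arctigenin.

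Pycard encodes ASC, the adaptor whose death-fold domains bridge NLRP3 or AIM2 to caspase-1. The single Pycard transcript, at chr7:135135617-135137381 on the minus strand, had 0 counts in each of the 5 libraries. A count of 0 allows up to 3 counts, or 0.139 CPM in vector and at most 0.151 CPM in any library before TMM scaling, counting error only. RAW264.7 cells are known from earlier work to lack ASC. No fold was computed, and no statement about treatment can be made for this gene.

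Casp1, the protease that matures interleukin-1β and interleukin-18, lies at chr9:5298517-5307265 on the plus strand and was counted through 1 curated transcript. Its level was 95.9 CPM in vector, 163 and 169 CPM with LPS, and 194 and 172 CPM with LPS and arctigenin. All 4 libraries with LPS were above vector, and the second arctigenin library lay just above the higher LPS library. Casp1 rose with LPS by 0.79 ± 0.09 (1.73-fold, adjusted p = 5.15e-05) and was higher in LPS with arctigenin than in vector by 0.93 ± 0.09 (1.91-fold, adjusted p = 1.44e-05). The arctigenin difference against LPS was 0.14 ± 0.07 with a 95% interval from −0.017 to 0.30 (adjusted p = 0.132), and it passed the threshold without the second arctigenin library (0.23, adjusted p = 0.0182).

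Casp4, which encodes the cytosolic LPS receptor caspase-11, follows Casp1 on the same strand at chr9:5308828-5336783, with 1562 bases between the 2 annotated genes. Its level was 162 CPM in vector, 197 and 202 CPM with LPS, and 127 and 131 CPM with LPS and arctigenin. Both LPS libraries were above vector and both libraries with arctigenin were below it. The rise with LPS was 0.30 ± 0.07 (1.23-fold, adjusted p = 0.00644). Without the second LPS library (adjusted p = 0.0519) or with curated transcripts alone (0.117) it was not called. With arctigenin added, Casp4 fell by 0.63 on the log2 scale, with an SE of 0.06 (1.55-fold, adjusted p = 2.96e-05). LPS with arctigenin against vector gave −0.33 ± 0.07 (1.26-fold lower, adjusted p = 0.00316).

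The fall of Casp4 with arctigenin was spread unevenly over its 4 transcripts. The curated NM_007609.3 had 2697 and 3072 estimated counts with LPS and 1997 and 2170 with LPS and arctigenin. The predicted XM_006509838.2 had 1092 and 762 with LPS and 259 and 185 with LPS and arctigenin, a log2 difference of −1.97 in the transcript fit (adjusted p = 0.0642), in which 1.19% of transcripts were called. With curated transcripts alone, Casp4 had −0.38 for arctigenin against LPS (adjusted p = 0.0512) and −0.068 for LPS with arctigenin against vector (adjusted p = 0.693).

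Of the neighbouring caspase genes, Casp4 fell with arctigenin and Casp1 was not called. The ratio of Casp4 to Casp1 in CPM was 1.69 in vector, 1.21 and 1.19 with LPS, and 0.653 and 0.763 with LPS and arctigenin. The ratio was lower with LPS than in the single vector library and lower again in both arctigenin libraries, with no overlap between groups. Single genes did not overlap for 89.8% of those tested in LPS against vector and 73.9% in LPS with arctigenin against LPS. No such share was computed for ratios. The smallest exact two-sided permutation p for 2 libraries against 2 is 0.333, which cannot pass 0.05, and no other test of the ratio was run. Casp12, the next caspase gene on the chromosome, had at most 0.245 CPM in any library and was not tested.

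The bases before the starts of the caspase genes and of Nlrp3 and Nlrc4 are shown because Nlrp3, Nlrc4 and Casp4 fell with arctigenin, while Casp1, beside Casp4, was not called. Each sequence is the 250 bases before the start of the first RefSeq entry, from a table of build GRCm38.p6, 5′ to 3′ on the strand of the gene. Positions are those of its single exact match on the chromosome in mm9. Capitals mark matches to the κB consensus on either strand. The interferon-response element, a pair of GAAA runs 2 bases apart, and the STAT site TTCNNNGAA were also searched on both strands and matched none of the 8 windows of the 6 genes with an entry.
Casp1 (chr9:5298267-5298516, plus): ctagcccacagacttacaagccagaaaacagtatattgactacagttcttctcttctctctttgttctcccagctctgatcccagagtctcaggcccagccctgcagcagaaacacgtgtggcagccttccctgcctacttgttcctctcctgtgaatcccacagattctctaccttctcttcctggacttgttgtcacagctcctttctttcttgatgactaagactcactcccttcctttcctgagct
Casp4 (chr9:5308599-5308848, plus): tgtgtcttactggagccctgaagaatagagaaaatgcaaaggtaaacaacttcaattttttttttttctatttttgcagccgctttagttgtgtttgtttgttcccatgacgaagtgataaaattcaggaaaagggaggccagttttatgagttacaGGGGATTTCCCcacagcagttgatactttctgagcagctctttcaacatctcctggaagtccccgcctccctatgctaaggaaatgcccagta
Nlrp3 (chr11:59354821-59355070, plus): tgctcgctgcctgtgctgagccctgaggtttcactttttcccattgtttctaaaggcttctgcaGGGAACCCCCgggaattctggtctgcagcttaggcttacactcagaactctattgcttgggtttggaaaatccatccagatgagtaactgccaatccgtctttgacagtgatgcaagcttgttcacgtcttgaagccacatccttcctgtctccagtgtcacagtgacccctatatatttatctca
Nlrc4 (chr17:74858449-74858698, minus): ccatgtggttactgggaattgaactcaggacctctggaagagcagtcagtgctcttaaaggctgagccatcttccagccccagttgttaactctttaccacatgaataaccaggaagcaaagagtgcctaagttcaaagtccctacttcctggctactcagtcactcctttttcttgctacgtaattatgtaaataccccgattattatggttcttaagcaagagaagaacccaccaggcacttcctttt
Casp4 held the overlapping letters GGGGATTTCC and GGGATTTCCC at −93 to −84 and −92 to −83 from the start, the latter on both strands. Nlrp3 held the letters GGGAACCCCC, a match on the opposite strand, at −186 to −177, and a second Nlrp3 start had no match. Casp1, Nlrc4, Aim2 and Pycard had no match, which says only that these letters were not in these windows. Of 32851 promoter windows of the same length, 3.9% held a κB match, 2.98% an interferon-response element and 7.02% a STAT site. A match is a description of the letters and no evidence of a bound factor.

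Gsdmd encodes the protein whose cleaved part forms the membrane pores of pyroptosis, and lies at chr15:75692769-75697834 on the plus strand. Its level was 45.8 CPM in vector, 68.5 and 68.3 CPM with LPS, and 72.4 and 71.9 CPM with LPS and arctigenin. All 4 libraries with LPS were above vector, and the replicates differed by less than 1 CPM in both groups. Gsdmd rose with LPS by 0.58 ± 0.09 (1.49-fold, adjusted p = 0.000468) and was higher in LPS with arctigenin than in vector by 0.66 ± 0.09 (1.58-fold, adjusted p = 0.000176). The arctigenin difference against LPS was 0.076 ± 0.073 with a 95% interval from −0.087 to 0.24 (adjusted p = 0.426). Its curated transcript held 94.2% and 96.5% of the count with LPS and 86.3% and 86.8% with LPS and arctigenin, while the predicted XM_006521342.3 went from 46.9 and 27.5 to 177 and 160 estimated counts. In the transcript fit that predicted model, at 0.00692 estimated counts in vector, was called higher with LPS (adjusted p = 0.037) and with LPS and arctigenin (adjusted p = 0.0196), and as it was near 0 in vector no fold is given. The arctigenin difference of Gsdmd against LPS from curated transcripts alone was −0.068 (adjusted p = 0.553).

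**Figure D3:**
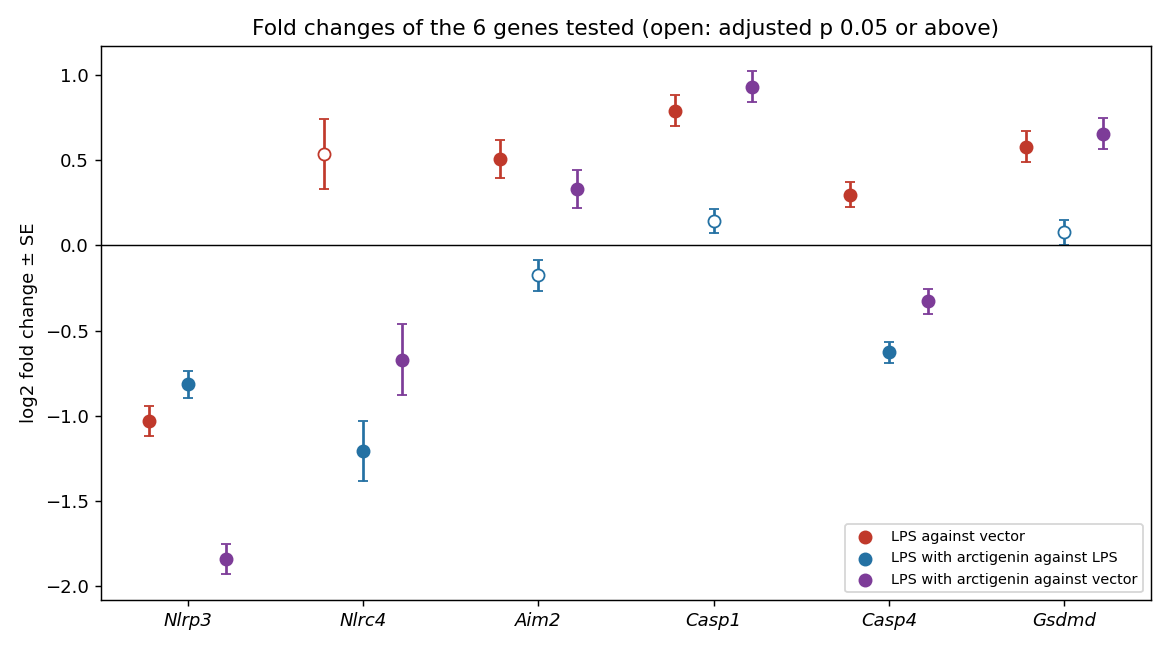
Log2 fold change of each tested inflammasome gene (vertical axis) in the 3 contrasts, which are marked by colour, with bars of 1 SE and filled points for an adjusted p under 0.05. Nlrp3 lies at −1.03, −0.82 and −1.85, Gsdmd and Casp1 are higher in both contrasts against vector, and the open points for arctigenin against LPS are Aim2, Casp1 and Gsdmd.

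In LPS with arctigenin against vector, all 6 tested genes were called, 3 higher (Casp1, Gsdmd and Aim2) and 3 lower (Nlrp3, Nlrc4 and Casp4), where 56.2% of all genes were called, 30.4% higher and 25.7% lower. For all 6 genes the vector library lay outside both LPS groups, as it did for 89.8% of all genes in LPS against vector and 90.7% in LPS with arctigenin against vector. In LPS with arctigenin against LPS the libraries of the groups did not overlap for 5 of the 6 genes, Aim2 being the exception, where this held for 73.9% of all genes tested. Casp1 and Gsdmd kept their calls against vector in both contrasts under all 10 alternatives run for each. For arctigenin against LPS, the falls of Nlrp3, Nlrc4 and Casp4 were called in 11 of 12 alternatives each, the exception being curated transcripts alone.

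**Figure D4:**
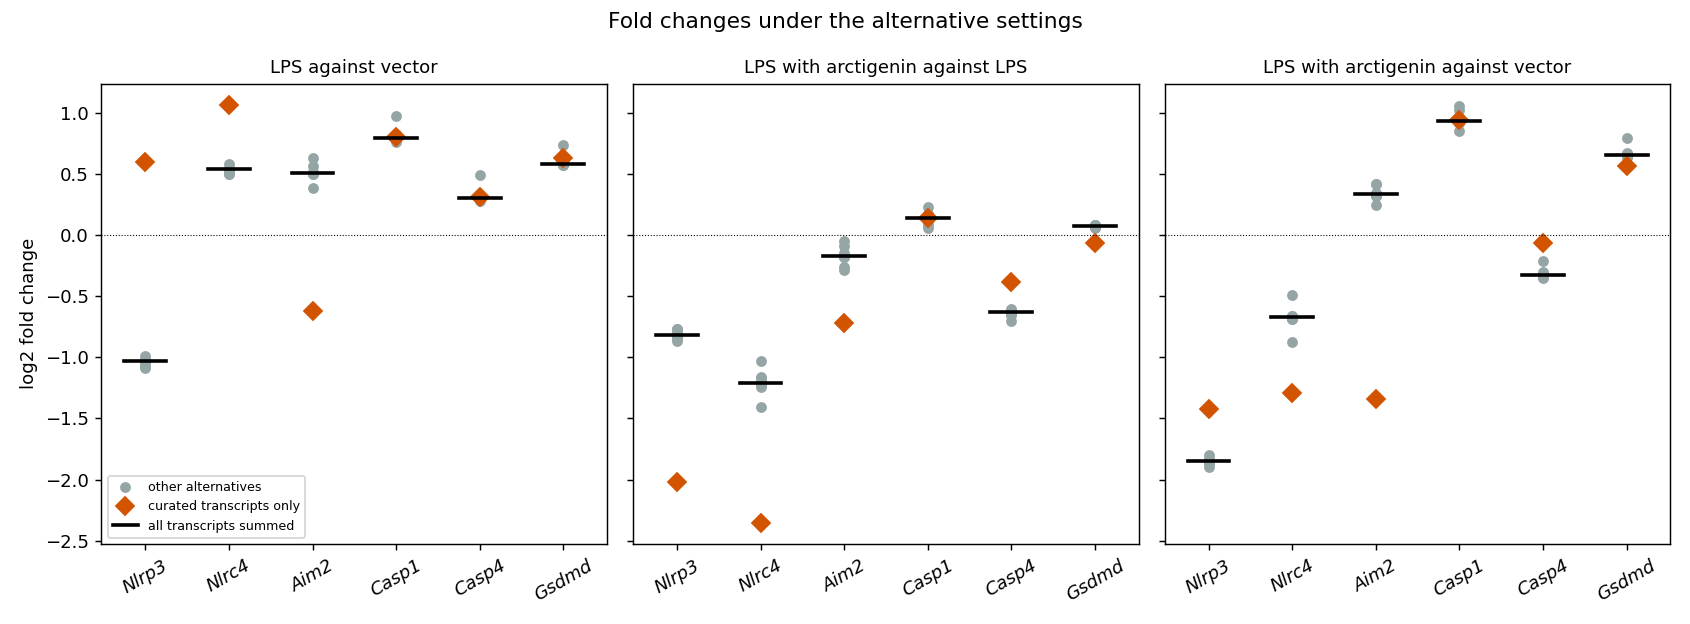
Log2 fold change of each tested gene (vertical axis) in the 3 contrasts, with a black bar for all transcripts summed, grey points for the other alternatives and an orange diamond for curated transcripts alone. The points of Casp1 and Gsdmd against vector stay on one side of 0, whereas curated transcripts alone move Nlrp3 with LPS from −1.03 to 0.60 and Aim2 with LPS from 0.51 to −0.63.

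The genes around the inflammasome were followed in 11 lists with 88 symbols, of which 73 were tested. With LPS 37 rose and 13 fell, where 27.1% of all genes were called higher and 24.9% lower, with a median log2 fold change of 0.37 beside −0.012 over all genes. With arctigenin added 14 rose and 30 fell, where 22.8% of all genes were called higher and 22% lower, with a median of −0.20 beside −0.0028 over all genes. Calls under all alternatives were held by 37 of the 50 genes called with LPS and by 16 of the 44 called for arctigenin. The members of the GBP, IRG, NAIP and Ifi200 families have near-identical copies, so reads could have been divided between them, and their values are uncertain.

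Among other sensors, 5 of 8 tested genes rose and 2 fell with LPS (27.1% and 24.9% of all genes). Pyhin1, an Ifi200 family gene, rose from 2.83 CPM in vector to 75.0 and 77.4 CPM with LPS, and Zbp1, the sensor of Z-form nucleic acid, rose from 24.3 CPM to 217 CPM in both LPS libraries. Mnda and Ifi204, also of the Ifi200 family, rose by 2.58 and 2.42 on the log2 scale. With arctigenin 3 of the 8 rose and 1 fell (22.8% and 22% of all genes): Pyhin1, Zbp1 and Ifi204 rose by 0.26 to 0.34, and Ifi203 fell by 0.50 on the log2 scale. The call of Pyhin1 was ended by 4 of 12 alternatives and that of Ifi204 by 3, and Ifi204 had 0.16 without the first LPS library (adjusted p = 0.247).

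The NAIP receptors, which bind bacterial ligands and start NLRC4 assembly, fell with arctigenin in 4 of 4 tested genes, where 22% of all genes were called lower. Naip2, the receptor for the rod protein of secretion systems, had 82.6 and 80.3 CPM with LPS and 48.4 and 55.1 CPM with LPS and arctigenin (log2 −0.65 ± 0.08, adjusted p = 0.000185). Naip5, a flagellin receptor, had −0.48, Naip6 −0.43 and Naip1 −1.30, and 5 of 12 alternatives ended the call of Naip1, 4 that of Naip6 and 1 that of Naip5. With LPS, Naip6 rose by 1.18 and Naip5 by 0.76 and the other 2 were not called, where 27.1% of all genes were called higher.

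Of 12 tested partners and regulators of NLRP3, 3 rose and 4 fell with LPS (27.1% and 24.9% of all genes), and 1 rose and 8 fell with arctigenin (22.8% and 22% of all genes). The LPS shares are near those of all genes. Txnip, a thioredoxin-binding protein that can bind NLRP3, stepped down from 1316 CPM in vector to 390.1 and 321 CPM with LPS and 109 CPM in both arctigenin libraries. P2rx7, the ATP-gated channel whose opening lets potassium out, went from 58.6 CPM to 29.8 CPM in both LPS libraries and to 13.4 and 14.1 CPM. Both fell in both contrasts, with adjusted p between 7.6e-07 and 3.97e-05. Nlrc3, an NLR protein known as a negative regulator, fell with arctigenin by 1.31 on the log2 scale, and the channel gene Panx1 fell by 0.80, a call that curated transcripts alone ended (adjusted p = 0.0503). Pstpip1, which binds pyrin, rose with LPS by 1.37, and the potassium channel gene Kcnk6 rose by 0.83.

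Other caspases rose with LPS in 4 of 6 tested genes and none fell (27.1% and 24.9% of all genes), and with arctigenin 1 rose and 2 fell (22.8% and 22% of all genes). The executioner caspase gene Casp6 rose from 8.68 CPM to 44.7 and 45.8 CPM with LPS and was higher again at 64.9 and 62.5 CPM with arctigenin (log2 0.49 ± 0.08, adjusted p = 0.000952). Casp9, the initiator of the mitochondrial pathway, fell by 0.64 on the log2 scale with arctigenin, and Casp8 rose with LPS by 0.35, a call that 3 of 10 alternatives ended. Of 10 other gasdermin and membrane-rupture genes only 2 were tested: Dfna5, which encodes gasdermin E, fell with LPS by 1.65 on the log2 scale from 3.74 CPM in vector, and Ninj1, needed for plasma membrane rupture, rose by 0.37. Each of these calls was ended by 3 of 10 alternatives, and neither gene was called for arctigenin.

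Both cytokine genes whose precursors caspase-1 cuts were higher with LPS, where 27.1% of all genes were, and with arctigenin, where 22.8% were. Il1b had 78.4 CPM in vector, 488 and 479 CPM with LPS, and 865 and 569 CPM with LPS and arctigenin. Its rise with LPS was 2.62 ± 0.26 (adjusted p = 0.00033), and that with arctigenin was 0.57 ± 0.18 (adjusted p = 0.0474), a call that 8 of 12 alternatives ended. Il18 had 41.6 CPM in vector, 115 and 116 CPM with LPS, and 134 CPM in both arctigenin libraries, a rise with LPS of 1.48 ± 0.08 and with arctigenin of 0.21 ± 0.06 (adjusted p = 0.0195), the latter ended by 5 of 12 alternatives and −0.13 with the transcript length correction (adjusted p = 0.136).

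Guanylate-binding proteins, some of which coat bacteria and help expose LPS to caspase-11, were listed together with immunity-related GTPases. Of the 9 tested genes of this list, 8 rose with LPS, where 27.1% of all genes did. Gbp5 went from 0.558 CPM to 31.3 and 36.8 CPM, and Gbp2, Gbp7 and Gbp3 rose by 4.52, 3.99 and 3.59 on the log2 scale. With arctigenin 5 of the 9 fell and 1 rose, where 22% and 22.8% of all genes did. Irgm2 had 55.6 and 53.8 CPM with LPS and 19.5 and 21.6 CPM with LPS and arctigenin (log2 −1.41 ± 0.10, adjusted p = 4.69e-06). Gbp9 fell by 1.81, Gm12250 by 1.31 and Igtp by 0.57 on the log2 scale, calls ended by 1, 6 and 4 of 12 alternatives.

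Transcription factors of priming rose with LPS in 7 of 10 tested genes and fell in 1 (27.1% and 24.9% of all genes), with Irf7, Stat2 and Irf1 higher by 2.40, 2.17 and 0.97. With arctigenin 4 fell and 1 rose (22% and 22.8% of all genes). Irf1, an interferon-response factor, had 20.6 CPM in vector, 38.2 and 42.4 CPM with LPS, and 13.2 and 14.4 CPM with LPS and arctigenin, a fall of 1.55 on the log2 scale (SE 0.11, adjusted p = 5.61e-06). Irf3 and Stat2 fell by 0.65 and 0.41 on the log2 scale, and Irf7 rose by 0.27, and 2 of 12 alternatives ended the call of Irf3 and 1 that of Irf7. Of the 8 genes of the TLR4 receptor arm, 2 rose and 3 fell with LPS (27.1% and 24.9% of all genes), and 2 rose and 4 fell with arctigenin (22.8% and 22% of all genes). Cd14, the co-receptor for LPS, had 1279 and 1287 CPM with LPS and 3021 and 2428 CPM with LPS and arctigenin (log2 1.09 ± 0.10, adjusted p = 5.18e-05), while the adaptor genes Ticam2 and Myd88 fell by 0.59 and 0.40 on the log2 scale, the latter not called without the first LPS library (adjusted p = 0.0743).

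In the list of necroptosis and the caspase-8 platform, 2 of 7 genes rose and 2 fell with LPS, near the shares of all genes (27.1% and 24.9%), and 1 rose and 1 fell with arctigenin (22.8% and 22% of all genes). Mlkl, the necroptosis executioner, rose with LPS by 1.71 and Cflar, an inhibitor of caspase-8, by 1.39, the latter not called with curated transcripts alone (adjusted p = 0.0651). Fadd, the adaptor of caspase-8, fell in both contrasts, by 0.78 and by 0.88 on the log2 scale, calls that 3 of 10 and 2 of 12 alternatives ended. Of 5 caspase inhibitors, 1 rose with LPS, where 27.1% of all genes did: Xiap by 0.20, a call that 6 of 10 alternatives ended and that was −0.080 with the transcript length correction (adjusted p = 0.4). With arctigenin Serpinb9 and Birc2 rose by 0.78 and 0.58 and Birc3 fell by 0.46 on the log2 scale (22.8% of all genes were called higher and 22% lower). From curated transcripts alone, Birc2 was at −0.089 (adjusted p = 0.862), and Serpinb9 (0.0945) and Birc3 (0.115) were not called.

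Single libraries decided several of the calls given above. Without the first LPS library the LPS calls of Dfna5, Fadd, Casp8 and Xiap were lost, and without the second those of Ninj1, Casp8 and Xiap. For arctigenin against LPS, those of Il1b, Il18, Naip1, Naip6, Pyhin1, Gm12250 and Igtp were lost when either LPS library was left out, those of Ifi204, Irf7 and Myd88 without the first, and those of Fadd and Irf3 without the second. Leaving out the first arctigenin library ended those of Naip1, Pyhin1, Ifi204 and Gm12250, and leaving out the second those of Naip6, Igtp and Gm12250.

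**Figure D5:**
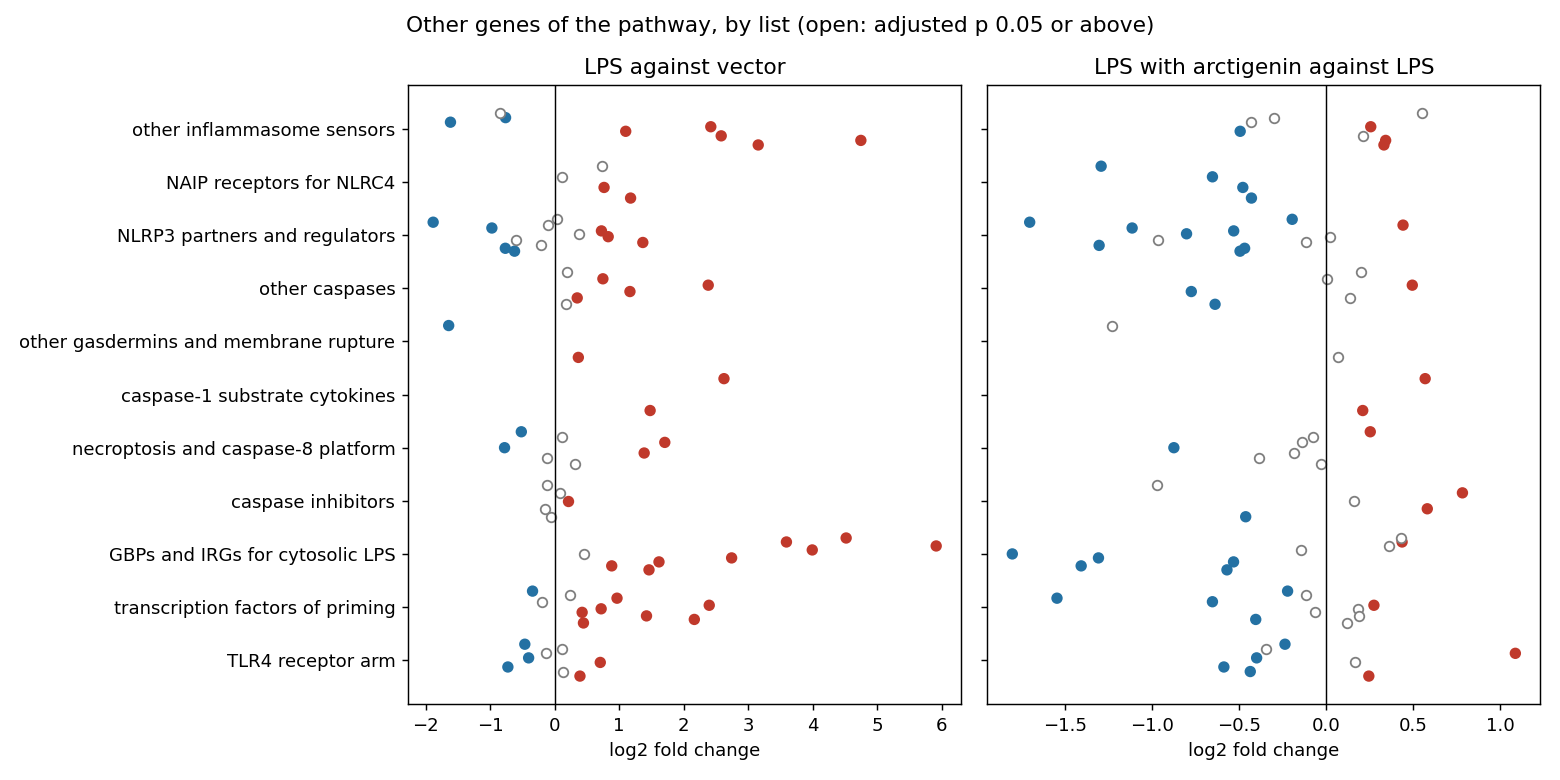
Log2 fold change of each tested gene of the 11 pathway lists (horizontal axes with different ranges, 1 point per gene) with LPS against vector and with LPS and arctigenin against LPS, where filled points passed an adjusted p of 0.05, red for higher and blue for lower. Of the GBP and IRG genes 8 are filled on the right of 0 with LPS and 5 on the left with arctigenin, and the 4 NAIP genes all lie below 0 with arctigenin.

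The genes whose profiles over the 5 libraries were nearest to each inflammasome gene were found by the Euclidean distance between centred log2 CPM values among 9216 genes. For Nlrp3 they were Diexf at a distance of 0.10, Rasa1 at 0.17 and Aig1 at 0.17 (log2 units). For Nlrc4 they were Trib1 at 0.14, Egr2 at 0.14 and Piwil2 at 0.19, and for Casp4 the nearest was Atp6v0a2 at 0.06. Vezt at 0.05 was nearest to Casp1, Psmd2 at 0.05 to Gsdmd and Zscan12 at 0.09 to Aim2. None of these genes is in the pathway lists.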

How the data were processed

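RNA from 5 RAW264.7 libraries was sequenced. The authors deposited an estimated count (expected count, not whole) for each RefSeq transcript, with Trimmomatic, HISAT2, Cufflinks, HTSeq, DESeq and mouse mm9 per the submitters' processing notes (no versions or order). The tool that made the estimates and the use of strand are not given in the sources used here. Near-identical or overlapping genes are therefore uncertain. Of 75959 transcripts, 29883 are curated and 46076 predicted.

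Estimated counts of all transcripts under a symbol were added and rounded. In R 4.3.3, edgeR 4.0.16 (TMM, filterByExpr with minimum count 10 and total 15, estimateDisp, robust glmQLFit, glmQLFTest, Benjamini-Hochberg) fitted all 5 libraries with group as the only term, with 2 residual degrees of freedom and a common BCV of 7.13%. The filter kept 11575 genes and left out 10303. Library totals were 19836203 to 21578355. Each standard error is the size of the log2 change divided by the root of its F statistic. The script was tested on simulated data for arctigenin against LPS, with 200 of 11575 genes changed at each fold. The simulated spread followed the fitted trend with level, without a spread of its own for each gene. It recovered 64% of genes changed 1.5-fold, 83% at 2-fold and 94% at 4-fold, with 3, 4 and 12 false calls. Changes of the smaller sizes can therefore be missed. In the data 44.8% of genes were called in that contrast, a far larger share than was changed in the simulation, so these rates need not hold there.

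The 7 genes, the lists, the markers and the motifs were chosen with earlier results of these data known. Named besides the 7 were, per list and contrast, up to 4 called genes with the largest log2 change, and the nearest profiles. A few genes that this rule names are not reported here. Alternatives were RLE size factors, no count filter, DESeq2 1.42.0, limma-voom (limma 3.58.1), curated transcripts only, a transcript length correction, each replicate left out, a replicate block, the 4 LPS libraries alone, and, chosen after seeing the data, transcripts in place of genes. Levels per kilobase used the longest protein-coding transcript of GENCODE vM1. Sequences are from RefSeq (GRCm38.p6).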

Additional observations from a re-analysis of the deposited data

How the results depend on the processing

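From curated transcripts alone, 3211, 2532 and 3815 genes were called in LPS against vector, arctigenin against LPS and LPS with arctigenin against vector, beside 6024, 5180 and 6503, and 2, 1 and 3 of the inflammasome genes beside 5, 3 and 6. There, Nlrp3 with LPS turned to 0.60, Aim2 to −0.63 with LPS and −1.34 for LPS with arctigenin against vector, and Gsdmd to −0.068 for arctigenin against LPS. This setting keeps 7 of the 41 transcripts. With transcripts in place of genes, chosen after seeing the data, 1804, 423 and 2475 transcripts were called. Leaving out 1 replicate gave 4543 to 6574, 3234 to 5180 and 5881 to 6472 genes and 4 to 6, 3 to 4 and 5 to 6 inflammasome genes, with 3234 for arctigenin against LPS without the first LPS library and 3518 without the second. The labels do not say whether replicates of the same number belong together. Deviations from the group mean in the first LPS and first arctigenin libraries correlated at −0.0084 across genes. With 2 libraries a group this is a single comparison and cannot decide whether the libraries were paired. A replicate block without the vector library called 5320 genes and 3 inflammasome genes for arctigenin against LPS, and the 4 libraries without the block called 5270 and 3. Over the single-gene results, 170 alternative values kept direction and side of the threshold. Another 12 kept direction and lost a call, and 6 kept direction and gained one. The remaining 4 reversed direction and were not sorted by call, and the LPS changes of Nlrp3 and Aim2 among them also lost their calls. The cause of these changes was not tested. With 1 or 2 libraries a group, the spread rests on few libraries.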
